A study of Mus musculus with 12 samples.

Results

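Serpins are protease inhibitors that mostly work once: a target protease cuts an exposed reactive loop, and the serpin snaps into a new shape that traps the enzyme. Extracellular members control clotting, clot lysis and complement, clade B members act largely inside cells, and a few, such as the collagen chaperone Serpinh1, inhibit no protease. Thymic epithelial cells of the medulla transcribe many genes that are otherwise restricted to other tissues, so a family with members in liver, epidermis, brain and blood cells shows side by side how tissue-restricted and broadly used genes of 1 protein fold behave.

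The members were all genes whose symbol starts with Serpin, 65 of the 25867 genes with a symbol in the deposited count table. Clade A, named after alpha-1-antitrypsin, had 26 of them and clade B, the ovalbumin-like serpins, had 28. Clade E had 3, clades F and I had 2 each, and clades C, D, G and H had 1 each. The gene families sit in runs: 25 members are on chromosome 12, 16 on chromosome 13 and 14 on chromosome 1. RefSeq annotates 2 of the members, Serpina3h and Serpina4-ps1, as pseudogenes.

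RNA was sequenced from thymic epithelial cells sorted from cultures of C57BL/6 thymic lobes taken at E15.5 of gestation. Before the sort, every culture had 4 to 5 days in 1.35 mM deoxyguanosine, which kills thymocytes, and 3 days with 10 µg/mL of an activating antibody to RANK, the receptor that drives Aire expression. The Kat7 knockout cultures carried RosaCre-ERT2 and Kat7fl/fl and had tamoxifen, so that Cre, which is expressed from a ubiquitous locus, deletes Kat7 in all cell types of a lobe. Kat7, also called HBO1, is a histone acetyltransferase. The control cultures also had tamoxifen, but their labels give the genotype only as control, so it is not known here whether they carried the Cre. Wild-type cultures made up the other 2 groups and had either WM-3835, which inhibits Kat7, or its solvent DMSO, and the labels give neither the dose nor the time of treatment. The compound is WM-3825 in the sample titles and WM-3835 in the treatment field. Each group had 3 libraries, described as biological replicates.

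The libraries held 26656847 to 52368012 counts, and the serpins together took 0.082 to 0.132% of them. Kat7 had 0.606 to 0.869 CPM (counts scaled to library size) in the knockout libraries, against 76.0 to 89.0 CPM in control. A list of 8 genes expressed in thymic epithelium had a summed level of 13700 to 18300 CPM. The list includes H2-Aa and Cd74, which are not specific to epithelium, so the sum is no measure of purity. Xist, the RNA of the inactive X chromosome, was at 1710 and 1190 CPM in knockout replicates 1 and 2 and at 4.94 CPM in replicate 3, against 2.34 to 3.17 CPM in control. It was at 845 to 2120 CPM in all WM-3835 and DMSO libraries. In knockout replicates 1 and 2 what goes with Xist and what goes with the deletion cannot be told apart, so the knockout counts are also given with replicate 3 as the only knockout library. Rn45s, the ribosomal RNA precursor, took 0.669% of the counts in control replicate 1, against at most 0.267% elsewhere. Values below are CPM scaled by the trimmed mean of M-values (TMM), which compare a gene between libraries, or RPKM, which are CPM per kilobase of gene length and compare genes with each other.

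**Figure D1:**
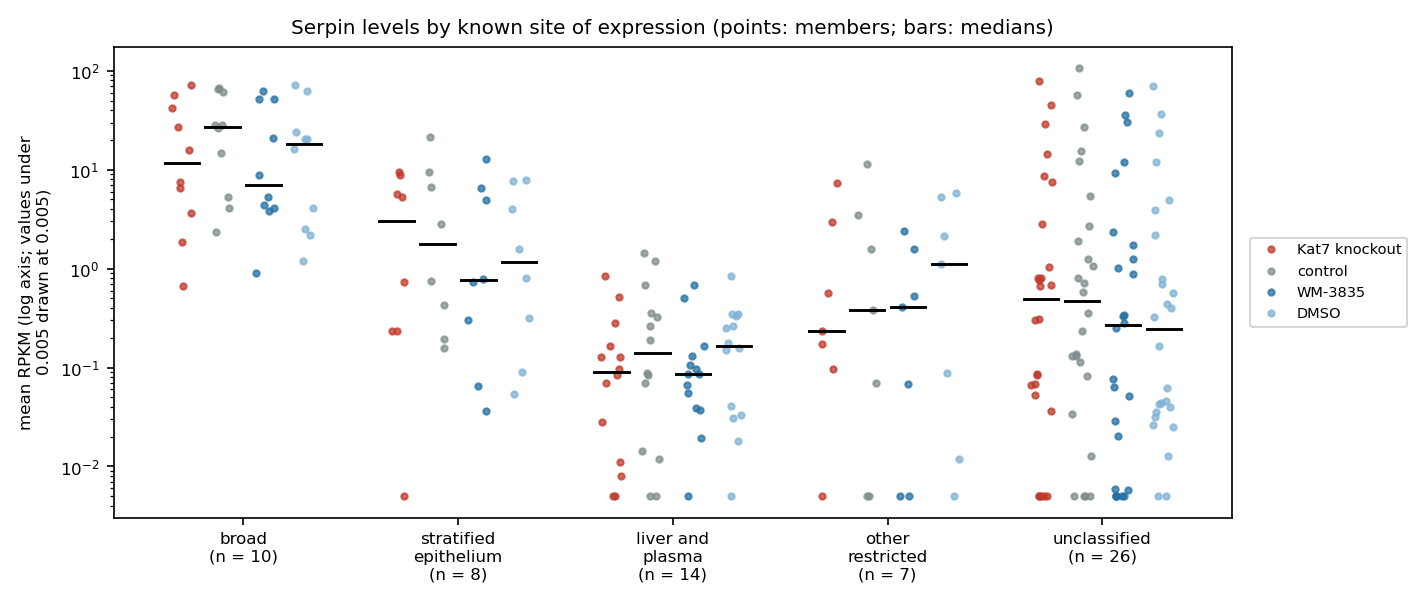
Mean level of each of the 65 serpins in the 4 groups, in RPKM on a log axis, by the adult site where the member is known to be expressed; points are members and bars are medians. The median bar of the 10 broad members is the highest in every group, and the liver and plasma members are lowest.

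The serpin transcripts of these cells came from few members. In knockout cells the 6 highest members by level held 67.6% of all serpin CPM, against 61.9% in control, 71.8% in WM-3835 cells and 69.5% in DMSO cells. Serpinb11, a clade B member on chromosome 1, led in knockout cells at 79.5 ± 30.6 RPKM and in control cells at 106 ± 20.5 RPKM (SD, n = 3 each). It was lower in the wild-type cultures, at 30.2 ± 6.88 RPKM with WM-3835 and 23.3 ± 0.876 RPKM with DMSO. Serpinb6a, a cytoplasmic inhibitor of trypsin-like proteases, stood at 57.0 ± 4.77, 67.4 ± 10.3, 62.6 ± 6.88 and 62.9 ± 2.12 RPKM in knockout, control, WM-3835 and DMSO cells. Serpina3g, a member of the expanded mouse antichymotrypsin family that inhibits lysosomal cathepsins, stood at 45.3 ± 5.10, 56.3 ± 4.52, 59.7 ± 2.79 and 70.0 ± 5.92 RPKM in the same order. Neighbours in this order, such as Serpinb6a and Serpinh1 in control cells (67.4 ± 10.3 and 65.6 ± 3.70 RPKM), differed by less than their spread.

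At the other end, 29 members stayed under 1 CPM in every group and 32 had a count of 0 in at least 1 library. A level filter left 49 members for testing. The 16 that failed it, among them Serpina1a, Serpina1c, Serpina6, Serpina16 and Serpini2, had 4 to 68 counts in total over the 12 libraries. Their group means reached at most 0.519 CPM.

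Sorted by the adult site of expression, the 10 broad members had median levels of 11.7, 27.3, 7.04 and 18.2 RPKM in knockout, control, WM-3835 and DMSO cells. The 29 tissue-restricted members had medians of 0.172, 0.328, 0.106 and 0.260 RPKM in the same groups. A further 26 members had no site class and are in neither set, among them Serpinb11, Serpina3g and Serpina3i, which were among the highest. Of the restricted classes, the 8 members of stratified epithelium were highest, with medians of 3.01, 1.80, 0.759 and 1.18 RPKM, and the 14 of liver and plasma lowest, with 0.0896, 0.139, 0.0858 and 0.167 RPKM. The plot of levels by known site shows these medians with the spread of the members.

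The promoters of broad and restricted members were compared by base composition, with no test. A window of 250 bases before to 50 after the RefSeq start listed first for a gene (GRCm38.p6) was at hand for 54 members. This is not always the outermost start. The Serpinb2 window, on the plus strand, begins at base 107511173 of its chromosome, while the gene begins at base 107500892. At least 10 CpG dinucleotides were in 3 of 7 broad windows and 1 of 23 restricted windows, against 43.9% of 27025 promoters genome-wide. The TATA box letters TATAAA, on either strand, were in 6 of 7 stratified-epithelium windows and in none of the broad ones, against 14.2% genome-wide. Among the 6 are the close paralogs Serpinb3a, Serpinb3b, Serpinb3c and Serpinb3d, so these windows are not independent of each other. The ends of this range are shown by Serpine2, a broad member on the minus strand at chr1:79858616-79858915, and Serpinb7, an epidermal member on the plus strand at chr1:107422439-107422738. Both genes fell in both comparisons below. Capitals mark CpG in the first, which has 41, and in the second, which has none, the TATA letters (read on the other strand as TTTATA) and an AP-1-type motif.

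Serpine2: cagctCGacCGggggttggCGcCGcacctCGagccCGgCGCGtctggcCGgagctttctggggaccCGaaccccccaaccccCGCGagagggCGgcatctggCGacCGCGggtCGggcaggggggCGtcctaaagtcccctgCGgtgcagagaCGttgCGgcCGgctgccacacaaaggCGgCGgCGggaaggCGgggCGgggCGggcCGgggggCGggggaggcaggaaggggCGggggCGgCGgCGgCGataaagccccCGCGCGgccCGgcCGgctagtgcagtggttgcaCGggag

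Serpinb7: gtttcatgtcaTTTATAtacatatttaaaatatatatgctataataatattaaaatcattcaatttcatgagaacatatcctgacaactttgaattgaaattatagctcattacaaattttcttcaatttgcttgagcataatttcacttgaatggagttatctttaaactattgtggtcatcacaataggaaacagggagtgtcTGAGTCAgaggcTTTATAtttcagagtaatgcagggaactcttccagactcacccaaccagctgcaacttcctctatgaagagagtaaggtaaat

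**Figure D2:**
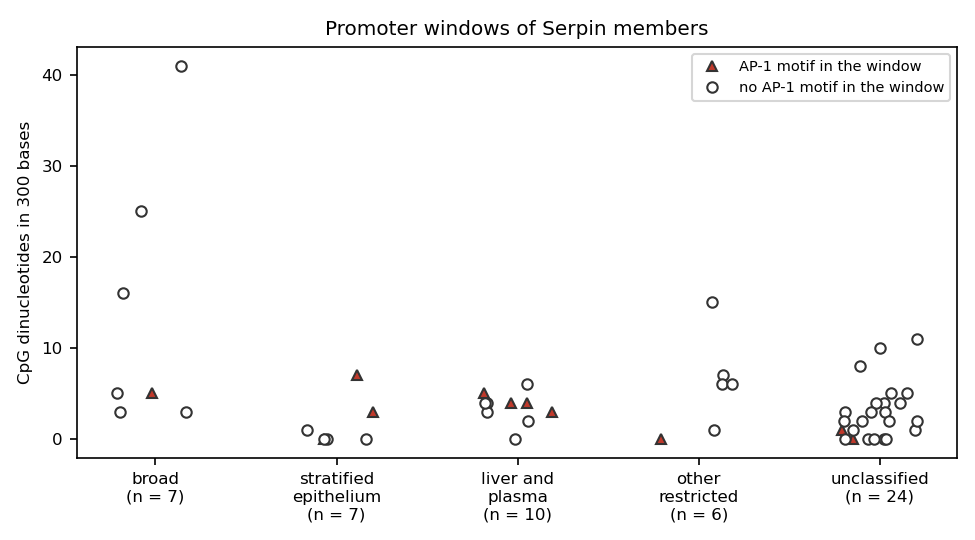
Number of CpG dinucleotides in the 300-base promoter window of 54 serpins by known site of expression; triangles mark windows with the AP-1-type motif. Only 3 broad members, 1 restricted and 2 unclassified members reach 10 CpG.

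In Kat7 knockout cells the change went mostly one way. Of the 49 members tested, 14 were lower than in control and 2 were higher at an adjusted p under 0.05 (edgeR's quasi-likelihood test, Benjamini-Hochberg over 18670 genes). Over all genes tested, 8.04% were lower and 6.34% higher. The median log2 change of the tested members was -0.31, against -0.01 for all genes. With replicate 3 as the only knockout library, 5 members were lower and 1 higher, and with Xist as a covariate 3 were lower and 1 higher. Of the members reported here, only Serpina3n, Serpine2 and Serpinb3a kept their knockout calls with Xist as a covariate. Without knockout replicate 1 or 3 the count of lower members was 8, and without knockout replicate 2 it was 9. In these bulk RNA samples, fewer cells of a type and less RNA per cell cannot be told apart.

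Serpine2, protease nexin-1, which inhibits thrombin and urokinase at the cell surface, had 29.1, 35.0 and 33.1 CPM in knockout cells, against 70.8, 53.8 and 52.1 CPM in control cells. The groups did not overlap, and the log2 change was -0.86 (SE 0.13, adjusted p = 1.51e-04). The call was kept in each alternative analysis. Serpine3, of the same clade, was low at 0 to 1.84 CPM in knockout cells, against 1.25 to 4.67 CPM in control cells, and did not pass (adjusted p = 0.268).

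Other secreted broad members fell as well. Serpina3n, an acute-phase inhibitor of granzyme B and of leukocyte proteases, had 3.88, 4.38 and 3.41 CPM in knockout cells, against 12.2, 12.1 and 8.57 CPM in control cells (log2 change -1.49, SE 0.27, adjusted p = 8e-04). Serpinf1, pigment epithelium-derived factor, inhibits no protease and restrains vessel growth. It had 16.4, 7.80 and 9.87 CPM in knockout cells, against 28.6, 20.9 and 16.1 CPM in control cells, and the highest knockout library lay just above the lowest control (log2 change -0.94, SE 0.23, adjusted p = 0.0093). Its call was lost without control replicate 1, without knockout replicate 2 or 3 and with Xist as a covariate. Serping1, the inhibitor of complement C1, was at 1.82, 1.10 and 0.695 CPM in knockout cells, against 4.14, 7.22 and 1.39 CPM in control cells. Its groups overlapped too, and its call (log2 change -1.81, adjusted p = 0.025) was lost when control replicate 2, the highest library, or knockout replicates 2 or 3 were left out. It was also lost with only the 6 libraries of the comparison and with Xist as a covariate.

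Serpinh1 is the endoplasmic reticulum chaperone of procollagen. Its transcript had 84.3, 109 and 118 CPM in knockout cells, against 150, 163 and 168 CPM in control cells, with no overlap (log2 change -0.63, SE 0.09, adjusted p = 1.53e-04). The call was lost only with Xist as a covariate (adjusted p = 0.114). Of 13 measured collagen chains and folding enzymes, 7 were lower in knockout cells, namely Plod1, P4ha1, Col5a1, Plod2, Col1a1, Col4a1 and Fkbp10. Plod1, a lysyl hydroxylase of collagen, was at 4.98 CPM on average in knockout cells, against 18.1 CPM in control cells (log2 change -1.86, adjusted p = 4.76e-05). All 13 had a negative log2 change, with a median of -0.52.

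Fibroblast genes moved in the same direction. Their summed level over 11 markers was 101 to 124 CPM in knockout cells, against 166 to 243 CPM in control cells, and 4 of the 11 (Dcn, Lum, Thy1 and Col1a1) were lower. None of the 11 was at 0 in any library. The part of fibroblast RNA in the fall of Serpinf1 and Serpinh1 was not tested.

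**Figure D3:**
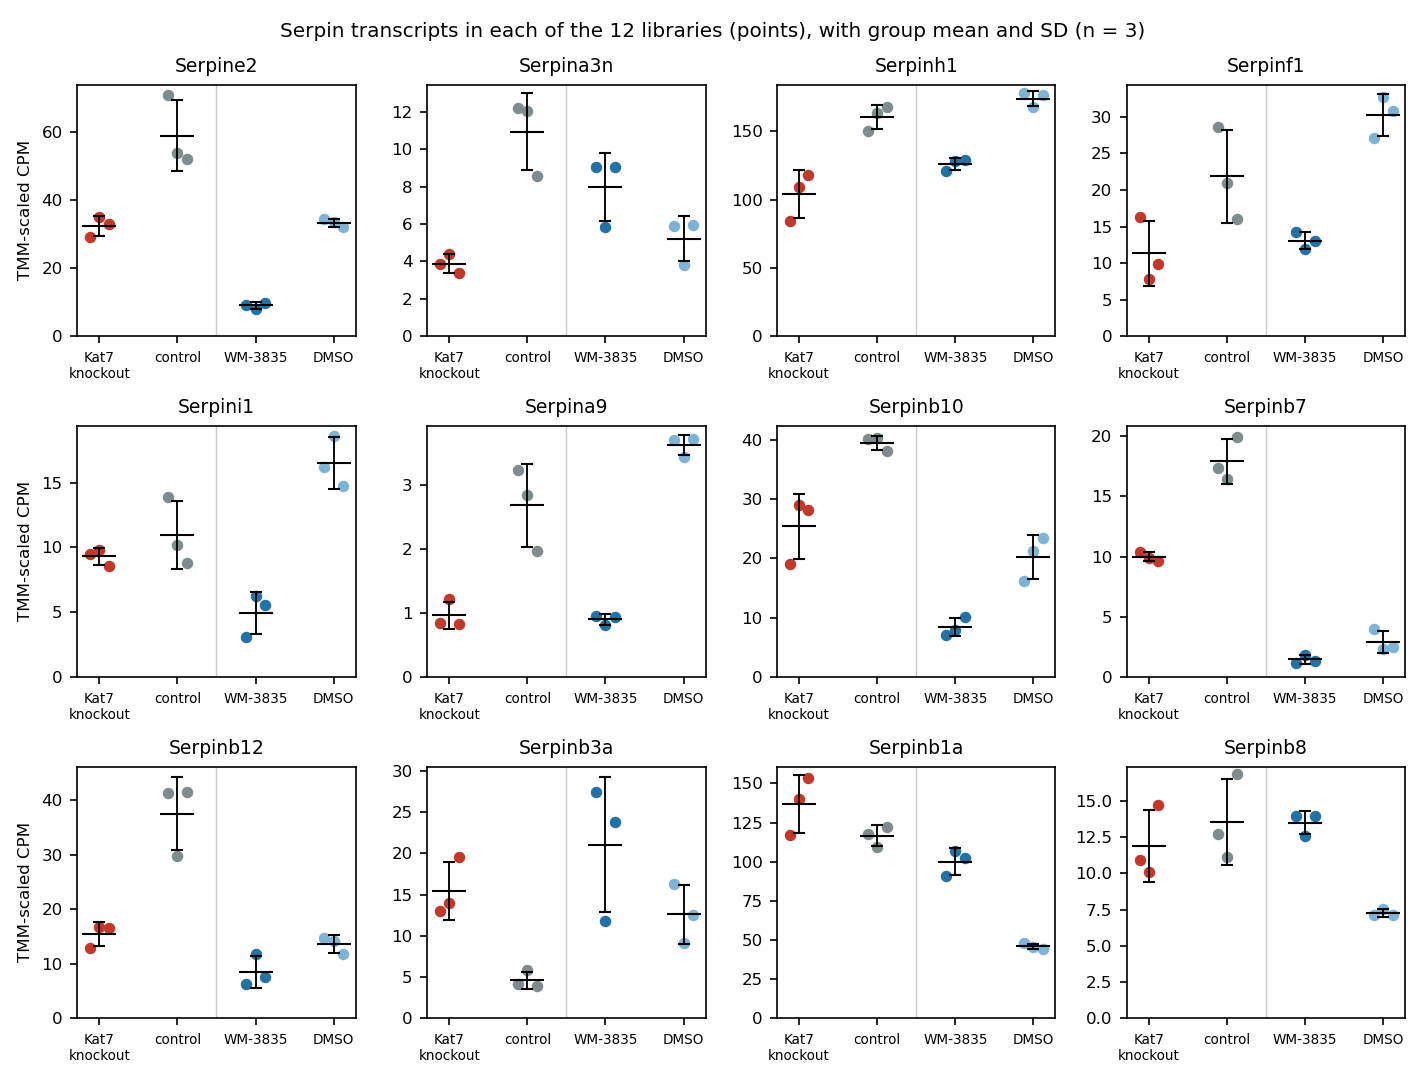
TMM-scaled CPM of 12 serpins in each library (points), with group mean and SD (n = 3), Kat7 knockout beside control and WM-3835 beside DMSO. Serpine2 is lower in both tested groups than in their own controls, and Serpinb1a and Serpinb8 are higher with WM-3835 than with DMSO.

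Of the broad clade B members, which act inside cells, none passed as lower. Serpinb1a, which protects cells from neutrophil elastase and cathepsin G, had 117, 140 and 154 CPM in knockout cells, against 118, 110 and 122 CPM in control cells (log2 change 0.23, adjusted p = 0.105). Serpinb9, the intracellular inhibitor of granzyme B, had 82.8, 97.9 and 92.2 CPM in knockout cells, against 83.8, 92.1 and 90.6 CPM in control cells, a log2 change of 0.03 (SE 0.09). Serpinb6a was at 105, 100 and 118 CPM in knockout cells, against 150, 118 and 114 CPM in control cells (log2 change -0.24, adjusted p = 0.115). Serpinb8, an inhibitor of furin, was at 10.9, 10.1 and 14.7 CPM in knockout cells, against 12.7, 11.1 and 16.9 CPM in control cells, with overlapping groups. Over all 10 broad members 6 were lower and none higher by edgeR or DESeq2, although Serpinb1a was higher at an unadjusted p under 0.05. They included Serpina3n, Serpine2, Serpinf1 and Serpinh1, and the median log2 change of all 10 was -0.75.

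Of the 22 restricted members tested, 6 were lower and 1 was higher, with a median log2 change of -0.38. Markers of medullary epithelium summed to 1110 to 1190 CPM in knockout cells, against 1560 to 1770 CPM in control cells, and 5 of 8 (Aire, Krt14, Trp63, Cd80 and Ccl21a) were lower. Aire averaged 536 CPM in knockout cells, against 634 CPM in control cells (log2 change -0.24, adjusted p = 0.045). None of the 8 was at 0 in any library, and their part in the restricted members' changes was not tested. The shares of lower members, 60.0% of the broad and 27.3% of the restricted class, do not show a difference in response, because the errors differed: the median SE was 0.15 for the broad class and 1.30 for the restricted one. All 3 knockout libraries lay below all controls for 4 of 10 broad and 7 of 22 restricted members, against 13.5% of all genes tested.

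The clade B run on chromosome 1 (chr1:106861175-107608978) holds many of the restricted members. In knockout cells 5 of its 12 members were lower and 1 was higher. Serpinb12, found in stratified epithelia, fell to 12.8, 16.8 and 16.6 CPM in knockout cells, against 41.4, 29.8 and 41.4 CPM in control cells (log2 change -1.29, SE 0.20, adjusted p = 2.83e-04). Serpinb7, expressed in keratinocytes and mutated in a human palmoplantar skin disease, had 10.4, 9.90 and 9.66 CPM in knockout cells, against 17.3, 16.4 and 19.9 CPM in control cells (log2 change -0.84, adjusted p = 0.0211). Serpinb2, plasminogen activator inhibitor-2, had 12.1, 12.6 and 21.2 CPM in knockout cells, against 35.9, 28.1 and 29.9 CPM in control cells (log2 change -1.04, adjusted p = 0.00803). Serpinb10, its neighbour, known from blood-forming cells, had 19.1, 29.0 and 28.1 CPM in knockout cells, against 40.1, 40.2 and 38.1 CPM in control cells (log2 change -0.64, adjusted p = 0.0167). The knockout and control libraries did not overlap for any of these 4 members. Without knockout replicate 1 the calls of Serpinb2, Serpinb7 and Serpinb10 were lost. Those of Serpinb2 and Serpinb7 were also lost without knockout replicate 2, and that of Serpinb7 without knockout replicate 3 or control replicate 3. With Xist as a covariate the calls of all 4 members were lost.

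Serpinb13, a keratinocyte inhibitor of cathepsin L, had no count in any knockout library, against 0.426, 1.09 and 0.529 CPM in control cells. Taking 3 counts over the group as the floor, it was at least 21-fold lower in knockout cells, and its call was lost in 12 of 20 alternative analyses. With replicate 3 as the only knockout library the 5 lower calls of the run were lost. The log2 changes in that fit were -1.17 for Serpinb12 (adjusted p = 0.0507), -0.88 for Serpinb7, -0.55 for Serpinb2 and -0.48 for Serpinb10.

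Serpinb3a, a counterpart of the human squamous cell carcinoma antigens and an inhibitor of cysteine proteases, moved the other way in the middle of the run. It had 13, 13.9 and 19.5 CPM in knockout cells, against 4.21, 5.80 and 3.87 CPM in control cells, with no overlap. Its log2 change was 1.74 (SE 0.29, adjusted p = 5.26e-04), and its call was kept in each alternative analysis. Its close paralogs Serpinb3b, Serpinb3c and Serpinb3d were at or under 1.74 CPM in all libraries. Serpinb11, between Serpinb3c and Serpinb7, was at 75.1, 167 and 164 CPM in knockout cells, against 202, 140 and 198 CPM in control cells. Knockout replicate 1 was far below the other 2, and the change did not pass (adjusted p = 0.425).

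**Figure D4:**
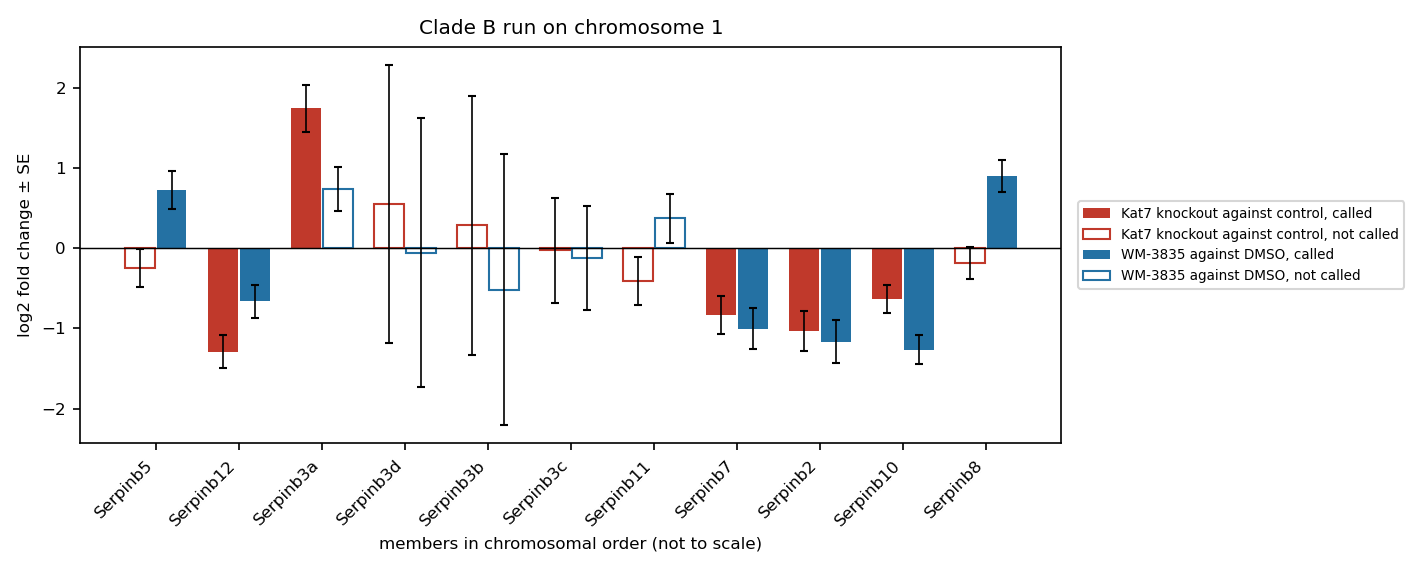
Log2 fold change with its SE for 11 members of the clade B run on chromosome 1, in chromosomal order, for Kat7 knockout against control (red) and WM-3835 against DMSO (blue); filled bars passed the test. Serpinb12, Serpinb7, Serpinb2 and Serpinb10 are lower in both comparisons, Serpinb3a is higher in knockout cells, and Serpinb13, without counts in knockout cells, is left out.

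Promoter windows were searched for motifs. The AP-1-type motif TGANTCA, whose reverse complement has the same letters, was in 7 of 11 promoter windows of the run and in 11 of all 54 serpin windows, against 7.93% of promoters genome-wide. The clade A run on chromosome 12 had it in 4 of 18 windows, those of Serpina1a to Serpina1d, which are also 4 of the 10 liver and plasma windows. The clade B run on chromosome 13 had it in none of 15. The 7 windows of the chromosome 1 run belong to 4 members that fell in both comparisons, to 2 that rose with WM-3835 and to Serpinb11, which passed in neither, as the following stretches of the plus strand (GRCm38.p6) show, each with the motif in capitals. The windows of Serpinb3a, Serpinb3b, Serpinb3c and Serpinb3d did not hold these letters.

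Serpinb12, chr1:106934394-106934420: aaaaacaatcTGATTCAcgatcattat

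Serpinb7, chr1:107422634-107422660: agggagtgtcTGAGTCAgaggctttat

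Serpinb2, chr1:107511319-107511345: agtaaaatgtTGAATCAtacaaagaat

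Serpinb10, chr1:107528939-107528965: cttgtgaaagTGAATCAagggtggggc

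Serpinb5, chr1:106861025-106861051: aagttgggccTGAATCAtgtcttccaa

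Serpinb8, chr1:107589973-107589999: gtgggaagtgTGAGTCAcagagtgttc

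Serpinb11, chr1:107362228-107362254: ggtgaagagcTGAATCAtaacaacaca

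The motif began 45 bases before the RefSeq start used for the window in both Serpinb12 and Serpinb7, and 94 before it in Serpinb2. For Serpinb2 that start lies well inside the gene. The distance was 54 bases in Serpinb10, 140 in Serpinb5, 23 in Serpinb8 and 76 in Serpinb11. Serpinb11 held another match 181 bases before its start, and Serpinb8 another 14 bases after it. No binding was measured in this series, and a match is a description of the letters only.

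The other runs were counted in the same way. On chromosome 13, which carries the Serpinb1, Serpinb6 and Serpinb9 families, none of 11 tested members passed in knockout cells by edgeR or DESeq2, while 1 was higher and 2 were lower at an unadjusted p under 0.05. On chromosome 12, 3 of 15 tested clade A members were lower and 1 was higher. Beside Serpina3n, these were Serpina9, Serpina3g and Serpina3h. Serpina9, known from germinal centre B cells, had 0.854, 1.22 and 0.834 CPM in knockout cells, against 3.24, 2.84 and 1.98 CPM in control cells (log2 change -1.47, adjusted p = 0.028). B-cell markers summed to 3.79 to 7.60 CPM in knockout cells, against 8.74 to 9.84 CPM in control cells. All 4 tested had a negative log2 change and none passed, and their part in the fall of Serpina9 was not tested. Serpina3g was slightly lower, at 99.3, 85.4 and 80.1 CPM in knockout cells, against 104, 120 and 105 CPM in control cells (log2 change -0.31, adjusted p = 0.023). Serpina3h was higher, at 21.8, 15.46 and 16.4 CPM in knockout cells, against 13.8, 10.4 and 9.27 CPM in control cells (log2 change 0.68, adjusted p = 0.0106). The call of Serpina3h was lost without knockout replicate 1, and that of Serpina3g without control replicate 2 or knockout replicate 2 or 3. Serpina9 lost its call without knockout replicate 1 or 3, control replicate 1 or DMSO replicate 1 or 3. With Xist as a covariate the calls of Serpina3g, Serpina3h and Serpina9 were lost. Serpina3h shared 11% of its 75-base words with other genes, most of them with Serpina3g, so reads of this family could have been split between copies. Serpina3i, the next gene of the family, was at 68.0, 59.1 and 62.2 CPM in knockout cells, against 61.9, 66.6 and 48.3 CPM in control cells, with overlap (log2 change 0.10, adjusted p = 0.641).

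Plasma serpins were at the edge of detection. Serpina7, thyroxine-binding globulin on the X chromosome, had 0, 0.589 and 0 CPM in knockout cells, against 3.36, 2.39 and 4.37 CPM in control cells, and its call (adjusted p = 0.043) was lost in 16 of 21 alternative analyses. Serpinc1, antithrombin, had 0.992, 2.13 and 2.36 CPM in knockout cells, against 1.80, 0.946 and 5.01 CPM in control cells, with overlap (adjusted p = 0.631). A share of 32.6% of its 75-base words occurs in the overlapping gene Zbtb37. Serpind1, heparin cofactor II, was at 0 to 0.382 CPM in knockout cells, against 0 to 1.59 CPM in control cells. Of the 9 liver and plasma members tested, Serpina7 alone passed. Enterocyte and hepatocyte markers summed to 102 to 143 CPM in knockout cells, against 241 to 308 CPM in control cells, and 4 of 11 tested were lower (Reg3g, Reg3b, Saa1 and Alb). Alb, the defining hepatocyte gene, was at 0 in 4 of the 12 libraries.

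With WM-3835 the calls were split. Of the 49 members tested, 9 were lower and 5 higher than with DMSO, against 9.36% lower and 9.55% higher (18.9% in either direction) over all genes tested. The median log2 change was -0.23, against -0.01 for all genes. With only the 6 libraries of this comparison in the fit, 8 members were higher, and with upper-quartile scaling 3 were. The count of higher members was also 3 without DMSO replicate 2 or 3 or without WM-3835 replicate 1 or 3. All 3 WM-3835 libraries lay below all DMSO libraries for 18 members and above them for 6, against 23.0 and 23.1% of all genes tested.

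Serpine2 fell most clearly, to 9.20, 8.06 and 9.89 CPM in WM-3835 cells, against 34.5, 33.4 and 32.2 CPM in DMSO cells (log2 change -1.89, SE 0.14, adjusted p = 9.04e-09). Serpini1, neuroserpin, an inhibitor of tissue plasminogen activator known from neurons, fell to 3.11, 6.23 and 5.55 CPM in WM-3835 cells, against 16.2, 18.6 and 14.7 CPM in DMSO cells (log2 change -1.74, SE 0.24, adjusted p = 2.98e-05). Serpinf1 had 14.3, 11.9 and 13 CPM in WM-3835 cells, against 27.1, 32.8 and 30.8 CPM in DMSO cells (log2 change -1.21, adjusted p = 7.37e-04). None of these 3 members overlapped between WM-3835 and DMSO. Serpinh1 had 121, 128 and 129 CPM in WM-3835 cells, against 178, 167 and 176 CPM in DMSO cells (log2 change -0.46, SE 0.09, adjusted p = 0.00127). Of its 13 measured clients and folding partners, 7 were lower and 2, Fkbp10 and Plod2, were higher. The fibroblast sum was 93.1 to 109 CPM in WM-3835 cells, against 98.4 to 119 CPM in DMSO cells, with 4 of 11 markers lower and 2 (Pdgfra and Fap) higher.

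Restricted members were again among those that fell. Serpina9 fell to 0.962, 0.808 and 0.937 CPM in WM-3835 cells, against 3.70, 3.44 and 3.72 CPM in DMSO cells (log2 change -2.0, SE 0.44, adjusted p = 0.00254). B-cell markers summed to 3.65 to 4.93 CPM in WM-3835 cells, against 3.54 to 4.75 CPM in DMSO cells. In the chromosome 1 run, Serpinb10 had 7.18, 8.03 and 10.2 CPM in WM-3835 cells, against 16.2, 21.2 and 23.5 CPM in DMSO cells (log2 change -1.27, adjusted p = 3.39e-05). Serpinb2 had 2.62, 2.58 and 5.55 CPM in WM-3835 cells, against 7.86, 8.12 and 7.82 CPM in DMSO cells (log2 change -1.17, adjusted p = 0.00332). Serpinb7 had 1.19, 1.88 and 1.39 CPM in WM-3835 cells, against 3.99, 2.32 and 2.55 CPM in DMSO cells (log2 change -1.0, adjusted p = 0.00846), a call that was lost without DMSO replicate 1 or WM-3835 replicate 1. These 4 members did not overlap between the groups. Serpinb12 did, with 6.24, 11.9 and 7.60 CPM in WM-3835 cells, against 14.8, 14.2 and 11.7 CPM in DMSO cells (log2 change -0.66, adjusted p = 0.0289). Its call was lost when either of 2 DMSO or 2 WM-3835 libraries was left out. Of the 22 restricted members tested 5 were lower, namely Serpina9, Serpinb7, Serpinb10, Serpinb12 and Serpini1, and 1, Serpinb5, was higher. The median log2 change of the 22 was -0.71. Of the 10 broad members 3 were lower and 2 higher, with a median log2 change of 0.01. These counts and medians do not show a difference in response, because the errors differed. The median SE was 0.16 for the broad class and 1.25 for the restricted one. Serpinb2 had no site class and is not among them. Markers of medullary epithelium summed to 1040 to 1120 CPM in WM-3835 cells, against 1890 to 2000 CPM in DMSO cells, and 3 of 8 (Aire, Trp63 and Ccl21a) were lower. Aire, the regulator that opens tissue-restricted genes to transcription, averaged 556 CPM in WM-3835 cells, against 1199 CPM in DMSO cells (log2 change -1.11, adjusted p = 8.11e-09). The enterocyte and hepatocyte markers summed to 62.0 to 69.3 CPM in WM-3835 cells, against 95.9 to 132 CPM in DMSO cells, with 5 of 11 tested lower and 1, Vil1, higher. The part of these markers in the restricted members' changes was not tested.

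The 5 members that rose were 4 of clade B and 1 of clade A, and 4 of clade B also fell. Serpinb1a had 90.8, 107 and 103 CPM in WM-3835 cells, against 47.9, 45.8 and 44.3 CPM in DMSO cells (log2 change 1.12, SE 0.09, adjusted p = 6.48e-08). Serpinb6b, a rodent paralog of Serpinb6a, had 12.7, 20.6 and 17.8 CPM in WM-3835 cells, against 9.42, 9.72 and 8.54 CPM in DMSO cells (log2 change 0.88, adjusted p = 0.00483). Serpinb8 had 14.0, 12.6 and 14.0 CPM in WM-3835 cells, against 7.13, 7.55 and 7.11 CPM in DMSO cells (log2 change 0.89, SE 0.20, adjusted p = 0.00275). Every WM-3835 library was above every DMSO library for these 3 members. Serpinb5, maspin, a non-inhibitory serpin of mammary and skin epithelium, had 17.3, 15.4 and 17.8 CPM in WM-3835 cells, against 9.71, 10.6 and 10.3 CPM in DMSO cells (log2 change 0.72, adjusted p = 0.0364). Serpina3c, another antichymotrypsin relative, had 1.72, 2.27 and 2.43 CPM in WM-3835 cells, against 0.790, 0.561 and 0.679 CPM in DMSO cells (log2 change 1.65, adjusted p = 0.0466). The calls of these 2 members were lost in 8 and 10 of 20 alternative analyses. Serpinb6a (104, 120 and 130 CPM in WM-3835 cells, against 116, 123 and 117 CPM in DMSO cells) and Serpinb9 (62.1, 80.4 and 71.6 CPM, against 68.4, 71.1 and 70.0 CPM) had log2 changes of -0.01 and 0.03 with an SE of 0.10 and 0.09.

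**Figure D5:**
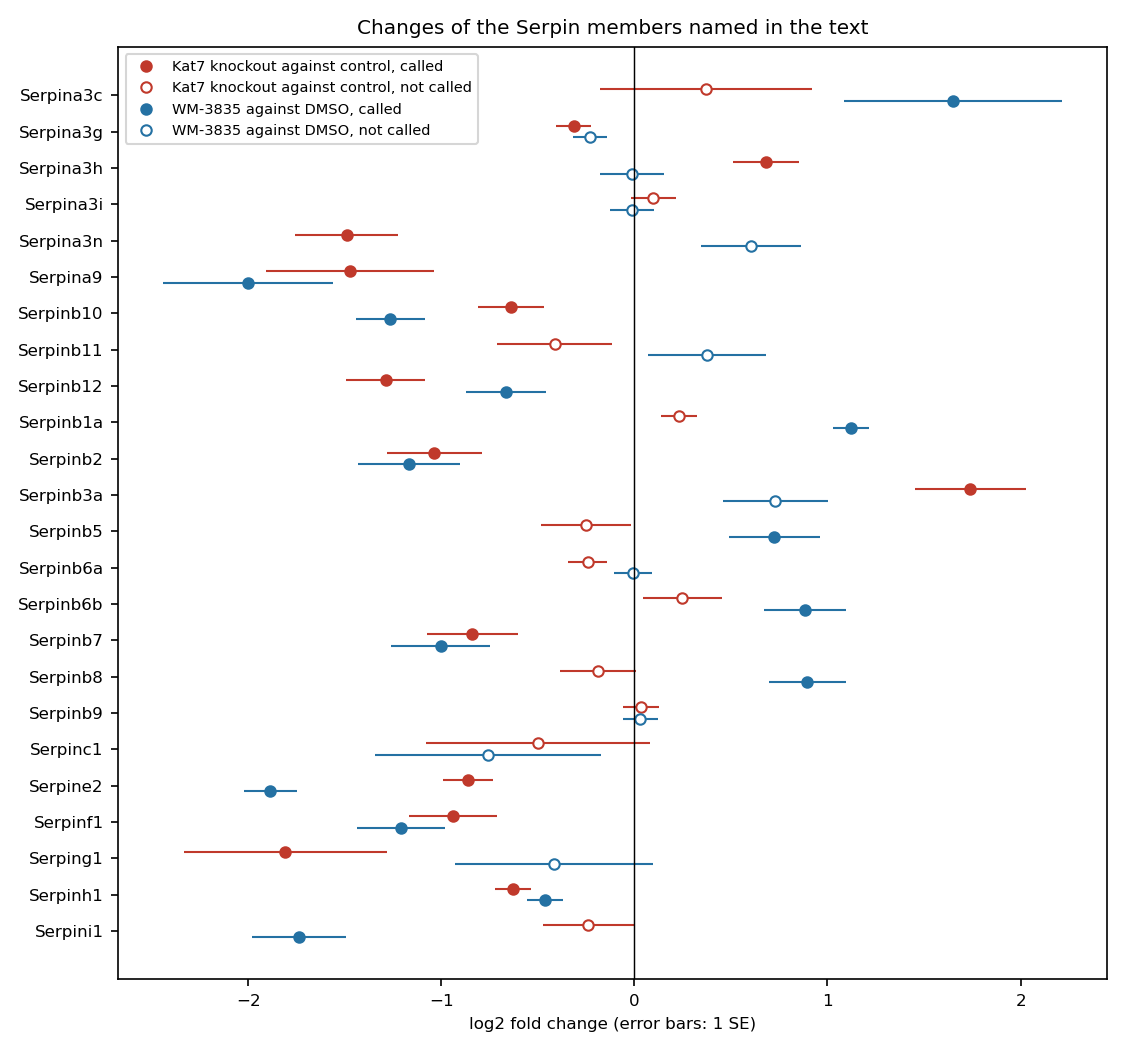
Log2 fold change with 1 SE for the named serpins with a count of 0 in fewer than 3 libraries, for Kat7 knockout against control (red) and WM-3835 against DMSO (blue); filled points passed the test. Serpine2, Serpinf1 and Serpinh1 pass as lower in both comparisons, and Serpinb3a passes as higher in knockout cells (1.74).

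Side by side, 22 members passed in at least 1 comparison and 8 of them were lower in both: Serpina9, Serpinb2, Serpinb7, Serpinb10, Serpinb12, Serpine2, Serpinf1 and Serpinh1. The comparisons use different libraries, but both take the spread of a gene from the same fit of all 12 libraries. That is 8 of the 14 members lower in knockout cells and 8 of the 9 lower with WM-3835 (57.1 and 88.9%). Over all genes tested, 467 were lower in both, 31.1% of those lower in knockout cells and 26.7% of those lower with WM-3835. With Xist as a covariate, Serpine2 was the only one of the 8 members to keep its knockout call. The difference between the 2 changes was tested in the same fit, and 6 members passed, 2 with a higher and 4 with a lower difference. Over all genes tested 10.4% passed, 4.56% higher and 5.80% lower. Serpina3n changed more negatively in the knockout comparison, by -2.10 (SE 0.37, adjusted p = 7.36e-04) on the log2 scale. Serpinb1a and Serpinb8 differed by -0.89 (adjusted p = 1.37e-04) and -1.08 (adjusted p = 0.0147), with their rise on the WM-3835 side. Serpine2 fell further with WM-3835, with a difference of 1.02 (adjusted p = 9.48e-04). Serpini1 differed by 1.50 (adjusted p = 0.00557) and passed as lower with WM-3835 alone. Its log2 change in knockout cells was -0.24 (SE 0.24, adjusted p = 0.563), with overlapping groups. With replicate 3 as the only knockout library Serpinb8 and Serpini1 no longer passed.

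The 2 control groups differed in many serpins, which bears on these differences. Serpina3n had 9.04, 5.87 and 9.05 CPM in WM-3835 cells, against 5.91, 3.81 and 5.94 CPM in DMSO cells (adjusted p = 0.117), and was lower in DMSO than in control cells (log2 change -1.06). In all, 15 members were lower and 4 higher in DMSO than in control cells, against 13.2 and 11.6% of all genes tested, and 12 of the 15 were clade B. Among the 15 were Serpina3n, Serpinb2, Serpinb7, Serpinb10, Serpinb12 and Serpine2, which were also lower in knockout than in control cells. Serpine2 averaged 33.4 CPM in DMSO and 32.4 CPM in knockout cells, against 58.9 CPM in control cells. Serpina3g, lower in knockout cells, was higher in DMSO than in control cells. Serpina7, Serpina9, Serpinb13, Serpinf1, Serping1 and Serpinh1, also lower in knockout cells, did not pass there. Serpinb3a was higher there, at 12.6 ± 3.57 CPM in DMSO cells, against 4.63 ± 1.03 CPM in control cells (log2 change 1.45), so control was the low group. With WM-3835 it was at 27.5, 11.8 and 23.8 CPM, against 16.3, 9.12 and 12.5 CPM in DMSO cells (adjusted p = 0.072). The genotype label, the tamoxifen, the DMSO and Xist all differ between control and DMSO, and their parts cannot be told apart.

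Target proteases, receptors and inhibitors of other families were also counted. Of 25 tested target proteases, 4 were lower in knockout cells, while with WM-3835 4 were lower and 4 higher. The shares of all genes tested were 8.04% lower in knockout cells, and 9.36% lower and 9.55% higher with WM-3835. Ctsh, a lysosomal cysteine protease, fell in both, with means of 60.5 CPM in knockout cells, against 121 CPM in control cells (log2 change -1.0, adjusted p = 1.37e-06), and 47.3 CPM in WM-3835 cells, against 69.8 CPM in DMSO cells (log2 change -0.56). Plau and Plat, the plasminogen activators that Serpine2 inhibits, did not pass in either comparison. Plau averaged 33.9 CPM in knockout cells, against 27.9 CPM in control cells (adjusted p = 0.134), and Plat 47.6 against 38.7 CPM (adjusted p = 0.0529). C1ra, a target of Serping1, rose to a mean of 45.2 CPM in WM-3835 cells, against 13.9 CPM in DMSO cells (log2 change 1.70, adjusted p = 1.56e-08). St14, a membrane protease of epithelium, rose to 406 CPM in WM-3835 cells, against 235 CPM in DMSO cells (log2 change 0.79).

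Among 9 receptors and cofactors that bind or clear serpins, Lrp1, the endocytic receptor for serpin-protease complexes, fell in knockout cells (log2 change -0.51, adjusted p = 0.00375) and rose with WM-3835 (log2 change 0.57, adjusted p = 7.58e-04). Sdc1, a heparan sulfate proteoglycan, was at 44.6 CPM in knockout cells, against 84.8 CPM in control cells (log2 change -0.93, adjusted p = 2.29e-05). Both Lrp1 and Sdc1 were lower in DMSO than in control cells, so the comparisons start from different levels. Of 17 tested protease inhibitors of other families, 4 were lower in knockout cells (Timp3, Cst3, Anxa2 and Timp1) and 1, Spink5, was higher. With WM-3835, Timp3 was lower and Timp2 higher. In either direction, 5 of the 17 passed in knockout cells and 2 with WM-3835, against 14.4 and 18.9% of all genes tested. Timp3, the matrix-bound metalloproteinase inhibitor, fell in both comparisons, with log2 changes of -0.63 (adjusted p = 1.36e-05) and -1.22 (adjusted p = 1.23e-09).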

How the data were processed

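Per the submitters' processing notes, the authors counted reads with featureCounts against mm10 and deposited raw counts per gene, with 1 column per library. No source used here gives the aligner, the annotation, the strand setting or the handling of multi-mapped reads, so reads of antisense, overlapping or near-identical genes could not be told apart. RNA came from sorted cells, in TruSeq libraries read as 75-base pairs, per the labels' protocols. Rows without a symbol (1312 of 27179, with 0.657 to 0.743% of counts) were left out.

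From the counts, edgeR 4.0.16 (R 4.3.3, with limma 3.58.1) gave TMM scaling, the filterByExpr filter, which kept 18670 genes, and robust quasi-likelihood tests on 4 group means over all 12 libraries. Calls used a two-sided Benjamini-Hochberg adjusted p under 0.05 over all tested genes. RPKM used the deposited gene lengths. The p-values measure the spread within groups, taken as 1 estimate per gene over all 4 groups and not from the compared groups alone. Libraries of a group differed by more than counting noise, so each counted as its own replicate. This spread was unequal. Chi-square per degree of freedom was 42.7 to 51.2 between control libraries and 8.57 to 22.3 between libraries of the other groups. DESeq2 1.42.0, other scalings and filters, a replicate block, an Xist covariate and left-out libraries were alternatives, and the scripts were tested on simulated data.

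Members, site classes and gene lists were chosen with earlier results of these data known. Named were the members called in a comparison or in the difference, those with at least 10 CPM in a group, the highest of each clade by RPKM, and up to 4 genes of each other list by adjusted p. Plau, Plat, Alb, Col1a1 and some low members were named beyond this rule, after their values were seen. Gene positions and promoters are from RefSeq GRCm38.p6, matched by gene ID for all 65 members, and shared 75-base words were counted in GENCODE M21 transcripts. Protein sequences were not used here. A member that entered the counts, medians and fits is not reported here.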

Additional observations from a re-analysis of the deposited data

Results flagged for a closer look

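For 5 of the serpins reported here the change in Kat7 knockout against control and the change with WM-3835 against DMSO differed in a test of the difference itself (edgeR, adjusted p under 0.05). Of all 49 members tested 6 passed, against 10.4% of all genes tested. The difference, knockout change minus WM-3835 change on the log2 scale, was -2.10 for Serpina3n, -1.08 for Serpinb8 and -0.89 for Serpinb1a. It was 1.02 for Serpine2 and 1.50 for Serpini1. The 2 comparisons have different controls, and 4 of these 5 genes differed between the DMSO and control groups as well (Serpini1 had an adjusted p of 0.0739 there), so a difference in effect cannot be told apart from a difference in starting level.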

How the results depend on the processing

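No called serpin changed sign in any alternative. Serpina3n, Serpinb3a and Serpine2 kept their knockout calls in all 21 alternatives, and Serpina9, Serpinb1a, Serpinb2, Serpinb6b, Serpinb8, Serpinb10, Serpine2, Serpinf1, Serpinh1 and Serpini1 kept their WM-3835 calls in all 20. With replicate 3 as the only knockout library, the knockout comparison gave 276 genes higher and 470 lower (all libraries: 1183 and 1501) with 1 and 5 serpins (2 and 14), and the difference gave 344 higher and 484 lower (852 and 1083) with 1 serpin higher (2). With Xist as a covariate these were 190 and 321 genes with 1 and 3 serpins, and 286 and 435 genes with 1 serpin higher. With only the 6 libraries of a comparison, the knockout gave 438 and 805 genes with 1 and 9 serpins, and WM-3835 gave 3025 higher and 3065 lower (1783 and 1747) with 8 serpins higher (5). Upper-quartile scaling gave 3 serpins higher with WM-3835. Fewer samples and residual degrees of freedom are part of the construction of the first setting and of the fits with only 6 libraries. Those with only 6 libraries also take the spread from the compared groups alone. The part of each in the shifts, and the cause of the other shifts, was not tested.

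Leaving out 1 library gave 813 to 1388 genes higher and 1029 to 1499 lower in the knockout, with 2 serpins higher each time and 8 to 14 lower, and 1206 to 2150 and 1234 to 2150 genes with WM-3835, with 3 to 5 and 7 to 10 serpins. For the difference it gave 610 to 1088 and 745 to 1215 genes, with 2 to 3 and 4 to 5 serpins. Deviations of same-numbered libraries from their group means correlated at 0.00218 to 0.00918 between knockout and control and 0.00317 to 0.058 between WM-3835 and DMSO. For different numbers the ranges were -0.00889 to 0.00424 and -0.0561 to 0.0168. The samples were not treated as paired in the main fit, and these weak values cannot exclude a pairing. With the replicate number as a block, the knockout gave 1185 genes higher and 1445 lower. The median broad over the median restricted member, taken within each control library and averaged over the 3, was 98.3 by RPKM and 141 by CPM. Members under about 1 CPM rest on few counts, since 3 counts equal 0.0578 to 0.112 CPM.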
